A study of Homo sapiens with 6 samples.

Results

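The BCL2 family of apoptosis regulators was followed in 143B cells, a human osteosarcoma line, after transfection with a SIGLEC15 siRNA or a negative control siRNA. The members were the 10 genes with the deposited gene names BCL2, MCL1, BCL2L1, BCL2L2, BAX, BAK1, BCL2L11, PMAIP1, BBC3 and BID, out of 58825 genes in the table. All 10 were among the 18910 genes with enough counts to be tested. There were 3 libraries with the SIGLEC15 siRNA and 3 with the negative control siRNA. Both groups were grown in 10% serum, received 80 nmol/L of their siRNA with the Hiperfect reagent, and gave poly(A) RNA after 36 h for paired-end sequencing. SIGLEC15 encodes Siglec-15, a cell surface receptor that binds sialic acid, and the design asks how transcripts differ when it is targeted. Each group is 1 cell line treated with the siRNA its label names. Nothing in the labels tells separate cultures from repeat libraries of 1 culture. Each p-value therefore weighs the group difference against a spread between libraries that may be technical.

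Proteins of the BCL2 family decide whether the outer mitochondrial membrane stays closed. The effectors BAX and BAK form pores that release cytochrome c, the guardians (BCL2, MCL1, BCL-XL and BCL-w) bind and restrain the effectors, and the BH3-only proteins (BIM, NOXA, PUMA and BID) engage the guardians or activate the effectors. The genes BCL2L1, BCL2L2, BCL2L11, PMAIP1 and BBC3 encode BCL-XL, BCL-w, BIM, NOXA and PUMA. MCL1 and NOXA are proteins of short half-life, so mRNA levels of the family are only part of its control.

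The libraries held 57966691 to 67655254 gene counts with the SIGLEC15 siRNA and 58818956 to 61858116 with the control siRNA. SIGLEC15 itself was read near the detection limit, with 12, 8 and 6 counts in the SIGLEC15 siRNA libraries, against 12, 10 and 22 in the control libraries. The groups overlapped, and the difference (log2 fold change -0.82, 95% interval -2.24 to 0.60) did not pass the test (edgeR adjusted p = 0.529), so a knockdown was not detectable at this depth and the groups are named by their labels. The 10 osteoblast and mesenchymal markers with a row summed to 532 to 575 FPKM (fragments per length of transcript and per library size) with the SIGLEC15 siRNA and 542 to 579 FPKM with the control siRNA. VIM carried most of that sum, at 413 to 454 FPKM with the SIGLEC15 siRNA and 470 to 503 FPKM with the control siRNA. SPARC rose 1.75-fold (109 ± 1.81 FPKM with the SIGLEC15 siRNA and 62.6 ± 1.80 FPKM with the control siRNA, SD, n = 3 each, edgeR adjusted p = 0.00137) and COL1A1 1.62-fold (edgeR adjusted p = 0.0134). RUNX2 had 2.03, 0.373 and 1.53 FPKM in the SIGLEC15 siRNA libraries, against 0.352, 0.365 and 0.265 FPKM in the control libraries, and did not pass (edgeR adjusted p = 0.113). Within that list IBSP was at 0 in every library, and COL1A2 had at most 12 counts. Some markers of other lineages were at 0 in all 6 libraries: PTPRC and CD3E for blood, CDH1 and KRT5 for epithelium, CDH5 for endothelium. The blood marker CD68 and the epithelial markers EPCAM and CLDN4 were read in all of them, CLDN4 with 62 to 170 counts. The endothelial marker PECAM1 was also read in all 6 libraries, with 11 to 27 counts. The blood markers CD14 and CD79A and the endothelial marker VWF had 0 to 12 counts per library. The blood list summed to 11.2 to 18.4 FPKM with the SIGLEC15 siRNA and 16.4 to 22.1 FPKM with the control siRNA, and the epithelial list to 3.30 to 4.05 FPKM with the SIGLEC15 siRNA and 4.06 to 4.83 FPKM with the control siRNA. Their part in the results was not tested.

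Among the 10 members, 2 anti-apoptotic genes, BCL2 and MCL1, fell in the SIGLEC15 siRNA libraries, by 2.44-fold and 1.36-fold. No member rose, and 8 did not pass the test, which was edgeR's quasi-likelihood F test with Benjamini-Hochberg adjustment over all tested genes and a threshold of 0.05. Of all tested genes, 4.65% passed, 2.43% lower and 2.22% higher. At an unadjusted p under 0.05, 1 member was higher (BAK1) and 3 were lower (BCL2, MCL1 and BCL2L1), and DESeq2 called these same genes. That unadjusted limit was met by 19.1% of all tested genes, 9.74% lower and 9.35% higher. Limma on log2(FPKM + 1) called 0 members higher and 1 lower (MCL1), and 7.99% of the genes it tested, 4.26% lower and 3.73% higher. BCL2 was not among the genes limma tested, since its mean was below the 1 FPKM that the filter needs. DESeq2 called 17.1% of the genes it tested, 8.49% lower and 8.62% higher, and gave no adjusted p for BCL2L2. The 2 groups of libraries did not overlap for 4 members, 1 higher (BAK1) and 3 lower (BCL2, MCL1 and BCL2L1), where 26.6% of all tested genes were apart, 13.7% lower and 12.9% higher. The median log2 fold change was -0.18 over the members and -0.01 over all tested genes. Fewer cells of a kind and less RNA per cell cannot be told apart in these bulk libraries.

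**Figure D1:**
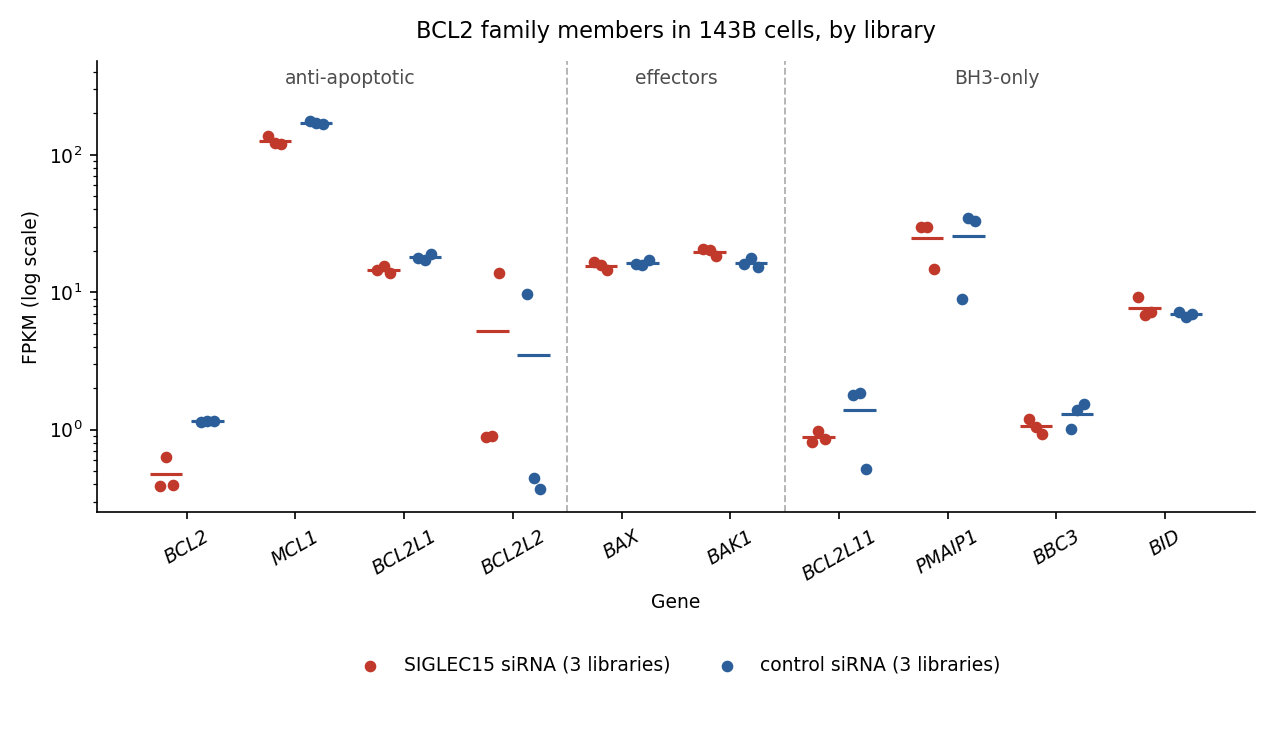
Level of each BCL2 family member in FPKM (log axis), with 1 point per library, a bar at the group mean, and the 3 SIGLEC15 siRNA libraries in red left of the 3 control siRNA libraries in blue. BCL2 and MCL1 sat lower in all 3 SIGLEC15 siRNA libraries, while BCL2L2, BCL2L11 and PMAIP1 had libraries of 1 group far from each other.

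BCL2 (ENSG00000171791, minus strand of chromosome 18, 63123346 to 63320128 in the deposited table) encodes the guardian that gave the family its name. Its level was 0.392, 0.628 and 0.397 FPKM in the SIGLEC15 siRNA libraries, against 1.13, 1.15 and 1.16 FPKM in the control libraries. All 3 SIGLEC15 siRNA libraries lay below all 3 control libraries, and the SIGLEC15 siRNA libraries were the more spread, with replicate 2 the highest of them. The means were 0.472 ± 0.135 FPKM with the SIGLEC15 siRNA and 1.15 ± 0.0151 FPKM with the control siRNA (SD, n = 3 each), from 369, 509 and 376 counts against 975, 950 and 1009 counts. The fall was 1.28 on the log2 scale: the log2 fold change was -1.28 with a standard error of 0.191 and a 95% interval of -1.74 to -0.83 (edgeR adjusted p = 0.0170). The call rested on all libraries but 1: without SIGLEC15 siRNA replicate 1 or 3, or without control replicate 1, 2 or 3, the adjusted p lay between 0.0577 and 0.0686 at log2 fold changes of -1.30 to -1.18, and limma on log2(FPKM + 1) with no filter gave 0.0529.

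MCL1 (ENSG00000143384, minus strand of chromosome 1, 150574551 to 150579738) encodes a guardian that holds BAK and BIM. It was by far the most abundant member, at 137, 121 and 119 FPKM in the SIGLEC15 siRNA libraries, against 176, 170 and 168 FPKM in the control libraries. Every SIGLEC15 siRNA library was below every control library. The means were 126 ± 10.0 FPKM with the SIGLEC15 siRNA and 171 ± 3.78 FPKM with the control siRNA (SD, n = 3 each), from 36329 to 47902 counts and 52120 to 56070 counts per library. Its log2 fold change was -0.44 with a standard error of 0.0756 and a 95% interval of -0.62 to -0.26 (edgeR adjusted p = 0.0255). Without SIGLEC15 siRNA replicate 2 or 3, or without control replicate 1, 2 or 3, the adjusted p lay between 0.0790 and 0.0999, at log2 fold changes of -0.46 to -0.40. ADAMTSL4-AS1, which touches MCL1 on the same strand, had at most 60 counts in a library.

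MCL1 was also the only one of the 10 members whose 3′ UTR held AGGCTCA, a sequence counted here because earlier results of these libraries pointed to it. The sequence was chosen on these same libraries, so the count of falling genes that carry it is a description and supports nothing about MCL1. In the longest annotated 3′ UTR per gene (GENCODE 29, GRCh38, transcript strand only, 13828 tested genes), 14.0% of genes held it. Of those 1942 genes 6.80% fell and 2.27% rose, against 2.47% and 3.04% of the 11886 genes without it, a difference that was not tested. The median log2 fold change was -0.06 with it and 0.01 without, and the median UTR length was 3139 bases with it and 1456 bases without. The wider family, listed further on, had 1 match among 13 genes, in HRK, which encodes a BH3-only protein. Both sites are given as 30 bases of reference sequence from 5′ to 3′, with the match in capitals, at chr1:150576737-150576766 for MCL1 and chr12:116856819-116856848 for HRK, both on the minus strand of GRCh38.
MCL1: atacttgacggaAGGCTCAgtaattagtta
HRK: tggaggaagctgAGGCTCAgagaggttaag
The MCL1 match began at base 621 of a 2824-base UTR, and the HRK match at base 4687 of 5379. HRK did not pass the test (log2 fold change -0.29, edgeR adjusted p = 0.289). The 5279-base 3′ UTR of BCL2 held no match.

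BCL2L1 (ENSG00000171552, minus strand of chromosome 20, 31664452 to 31723989), the gene of BCL-XL, stood at 14.6, 15.4 and 13.9 FPKM in the SIGLEC15 siRNA libraries, against 17.8, 17.1 and 18.9 FPKM in the control libraries. The groups did not overlap, and the SIGLEC15 siRNA group was the lower. Its log2 fold change was -0.29 with a standard error of 0.0743 and a 95% interval of -0.47 to -0.12, which missed the threshold (edgeR adjusted p = 0.0823). DESeq2 gave an adjusted p of 0.00138 for the same difference. Its antisense neighbour ABALON had 198, 200 and 203 counts in the SIGLEC15 siRNA libraries, against 149, 216 and 129 in the control libraries, and whether the counting used the strand is not given in the sources used here.

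BCL2L2 (ENSG00000129473, plus strand of chromosome 14, 23298790 to 23311759), the gene of BCL-w, did not follow the groups. It had 0.888, 0.899 and 13.8 FPKM in the SIGLEC15 siRNA libraries, against 9.64, 0.446 and 0.370 FPKM in the control libraries. SIGLEC15 siRNA replicate 3 and control replicate 1 were high, with 4640 and 2950 counts, and the other 4 libraries had 299, 261, 133 and 117 counts. The highest library was 15.6 times the lowest within the SIGLEC15 siRNA group and 24.9 times within the control group, in CPM (counts relative to library size). The log2 fold change of 0.59 had a standard error of 1.53 and a 95% interval of -3.05 to 4.24 (edgeR adjusted p = 0.885), so neither direction was detectable. BCL2L2 shares 813 of its 4189 exon bases with the read-through gene BCL2L2-PABPN1 on the same strand in GENCODE 29. That gene had 57, 76 and 87 counts in the SIGLEC15 siRNA libraries, against 145, 110 and 518 in the control libraries, so the unevenness stayed in the sum of both genes: 356, 337 and 4727 counts in the SIGLEC15 siRNA libraries, against 3095, 243 and 635 in the control libraries. HOMEZ and PPP1R3E overlap BCL2L2 on the opposite strand, and neither was called (edgeR adjusted p = 0.0776 for PPP1R3E, the lower of both).

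**Figure D2:**
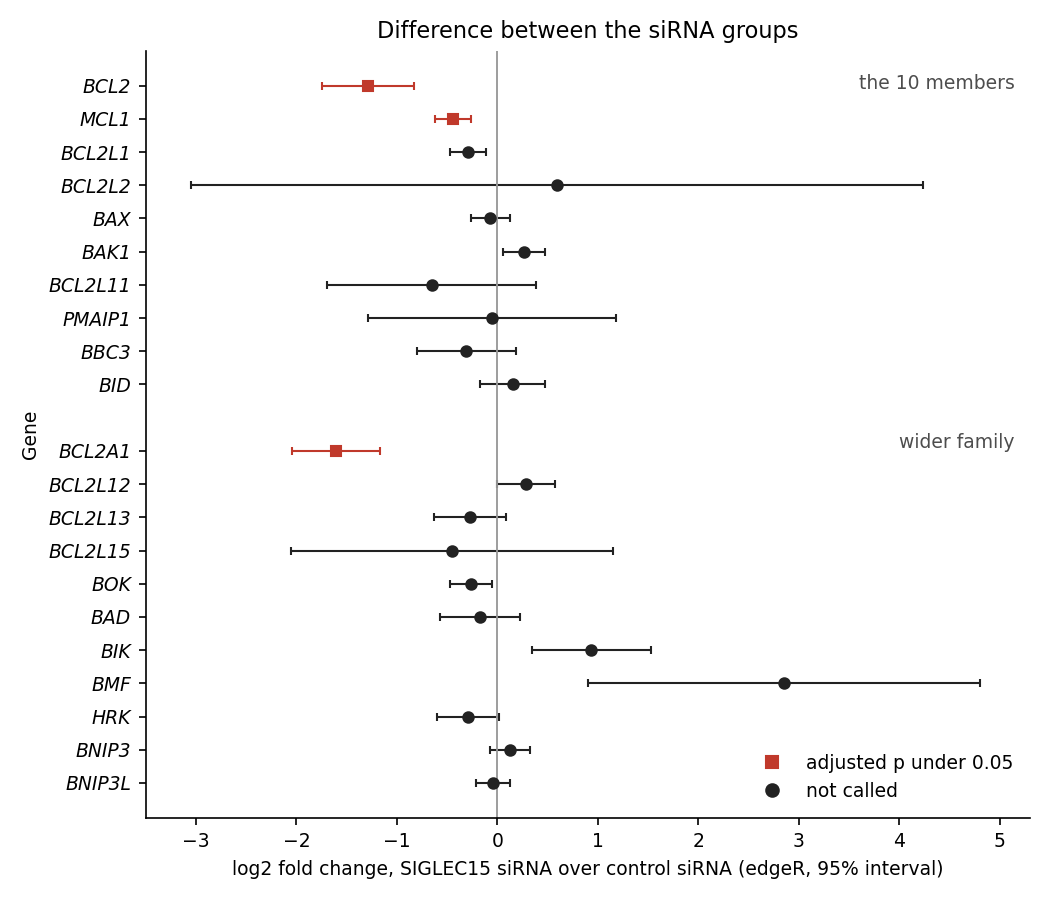
Log2 fold change of SIGLEC15 siRNA over control siRNA for the 10 members and the other tested genes of the wider family. Bars are 95% intervals computed from the F statistic of edgeR. Red squares passed the test: BCL2 at -1.28, MCL1 at -0.44 and BCL2A1 at -1.61, all lower in the SIGLEC15 siRNA libraries.

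Neither effector passed the test. BAX (ENSG00000087088, plus strand of chromosome 19, 48954815 to 48961798) was at 16.5, 15.7 and 14.6 FPKM in the SIGLEC15 siRNA libraries, against 16.1, 15.9 and 17.1 FPKM in the control libraries. The groups overlapped, and the 95% interval of the log2 fold change, -0.26 to 0.13, bounds the difference (edgeR adjusted p = 0.730). BAK1 (ENSG00000030110, minus strand of chromosome 6, 33572547 to 33580293) had 20.5, 20.2 and 18.2 FPKM in the SIGLEC15 siRNA libraries, against 16.1, 17.6 and 15.2 FPKM in the control libraries. Each SIGLEC15 siRNA library was above each control library, with means of 19.6 ± 1.25 FPKM with the SIGLEC15 siRNA and 16.3 ± 1.21 FPKM with the control siRNA (SD, n = 3 each). The log2 fold change of 0.26, with a standard error of 0.0876 and a 95% interval of 0.05 to 0.47, did not pass the test (edgeR adjusted p = 0.163), and DESeq2 gave 0.0206.

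None of the 4 BH3-only genes passed the test, and 2 of them had libraries that stood apart from their own group. PMAIP1 (ENSG00000141682, plus strand of chromosome 18, 59899948 to 59904306), the gene of NOXA, which binds MCL1, was the second most abundant member by mean FPKM. It had 29.9, 29.9 and 14.8 FPKM in the SIGLEC15 siRNA libraries, against 8.92, 34.8 and 33.1 FPKM in the control libraries. SIGLEC15 siRNA replicate 3 and control replicate 1 were low, the same libraries in which BCL2L2 was high. The log2 fold change was -0.05 with a 95% interval of -1.28 to 1.18 (edgeR adjusted p = 0.973).

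BCL2L11 (ENSG00000153094, plus strand of chromosome 2, 111119378 to 111168445), the gene of BIM, had 0.816, 0.975 and 0.855 FPKM in the SIGLEC15 siRNA libraries, against 1.80, 1.86 and 0.517 FPKM in the control libraries. Control replicate 3 was below all others and the other 2 control libraries above all others, so the groups overlapped. The log2 fold change of -0.66 had a 95% interval of -1.70 to 0.39 (edgeR adjusted p = 0.486), and without control replicate 3 it was -1.05 and passed the test (edgeR adjusted p = 0.0283). BCL2L11 lies within the span of MIR4435-2HG on the opposite strand, which had 2737 to 3168 counts with the SIGLEC15 siRNA and 2569 to 2863 counts with the control siRNA.

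BBC3 (ENSG00000105327, minus strand of chromosome 19, 47220822 to 47232766), the gene of PUMA, was at 1.20, 1.04 and 0.931 FPKM in the SIGLEC15 siRNA libraries, against 1.01, 1.39 and 1.53 FPKM in the control libraries. Control replicate 1 lay inside the SIGLEC15 siRNA range (log2 fold change -0.31, 95% interval -0.80 to 0.19, edgeR adjusted p = 0.490). BID (ENSG00000015475, minus strand of chromosome 22, 17734138 to 17774770), which links death receptors to mitochondria once a caspase cleaves it, was at 9.22, 6.78 and 7.16 FPKM in the SIGLEC15 siRNA libraries, against 7.24, 6.64 and 6.95 FPKM in the control libraries. SIGLEC15 siRNA replicate 1 was the highest and the rest lay close together (log2 fold change 0.15, 95% interval -0.17 to 0.48, edgeR adjusted p = 0.615).

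**Figure D3:**
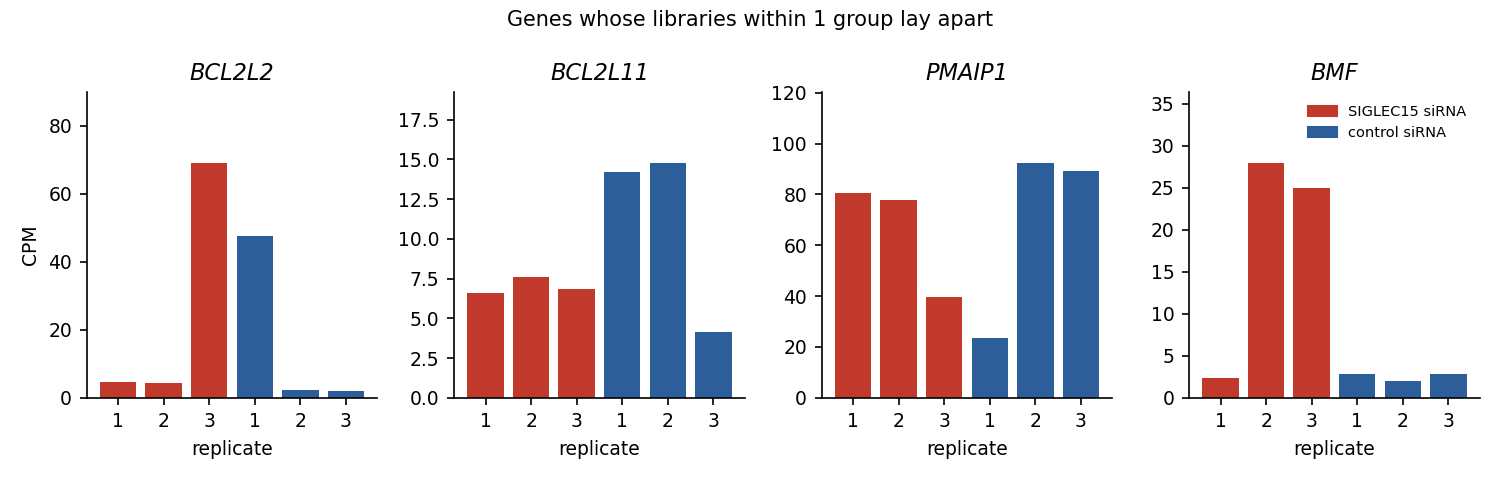
TMM-scaled CPM (read counts relative to library size) of the family genes with a mean of at least 100 counts and libraries of 1 group more than 3-fold apart, for the 3 SIGLEC15 siRNA libraries (red, left) and the 3 control siRNA libraries (blue, right). BCL2L2 was high in SIGLEC15 siRNA replicate 3 and control replicate 1, where PMAIP1 was low, while BCL2L11 was low in control replicate 3 and BMF low in SIGLEC15 siRNA replicate 1.

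The spread within a group was counted over the table. BCL2L2, BCL2L11 and PMAIP1, 3 of the 10 members, had a highest library more than 3-fold above the lowest of its own group, where 672 of 13646 tested genes with a mean of at least 100 counts did (4.92%). In the other 7 members that ratio was at most 1.55. What set these libraries apart was not tested.

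On the FPKM scale the members spanned a wide range. In the control libraries MCL1 was above 98.9% of the tested genes, PMAIP1 above 91.9%, BCL2L1 above 88.3%, BAX above 87.3% and BAK1 above 87.2%. BID was above 73.0%, BCL2L2 above 58.7%, BCL2L11 above 41.9%, BBC3 above 40.8% and BCL2, the lowest member by mean, above 38.8%. By mean FPKM the order with the SIGLEC15 siRNA was MCL1, PMAIP1, BAK1, BAX, BCL2L1, BID, BCL2L2, BBC3, BCL2L11 and BCL2. With the control siRNA it was MCL1, PMAIP1, BCL2L1, BAX, BAK1, BID, BCL2L2, BCL2L11, BBC3 and BCL2. Neighbours whose libraries did not overlap were MCL1 over PMAIP1, BAK1 over BAX, BCL2L1 over BID and BCL2L11 over BCL2 with the SIGLEC15 siRNA, and MCL1 over PMAIP1 and BAK1 over BID with the control siRNA. All other neighbours overlapped.

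Summed over the 4 anti-apoptotic members, the level was 153, 138 and 147 FPKM in the SIGLEC15 siRNA libraries, against 204, 189 and 189 FPKM in the control libraries. Every SIGLEC15 siRNA sum was below every control sum, with means of 146 ± 7.71 FPKM with the SIGLEC15 siRNA and 194 ± 8.89 FPKM with the control siRNA (SD, n = 3 each). MCL1 made up 89.6%, 87.7% and 80.9% of that sum in the SIGLEC15 siRNA libraries, against 86.0%, 90.1% and 89.2% in the control libraries. Without MCL1 the sums were 15.9, 17.0 and 28.1 FPKM in the SIGLEC15 siRNA libraries, against 28.5, 18.7 and 20.4 FPKM in the control libraries, and they overlapped. The 6 pro-apoptotic members summed to 78.1, 74.5 and 56.5 FPKM in the SIGLEC15 siRNA libraries, against 51.2, 78.3 and 74.4 FPKM in the control libraries. Those groups overlapped too, with means of 69.7 ± 11.6 FPKM with the SIGLEC15 siRNA and 68.0 ± 14.7 FPKM with the control siRNA (SD, n = 3 each).

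The log2 ratio of the pro-apoptotic over the anti-apoptotic sum was -0.97, -0.89 and -1.38 in the SIGLEC15 siRNA libraries, against -2.00, -1.27 and -1.34 in the control libraries. SIGLEC15 siRNA replicate 3 lay below 2 of the control libraries, so the groups overlapped. The means were -1.08 ± 0.264 with the SIGLEC15 siRNA and -1.54 ± 0.400 with the control siRNA (SD, n = 3 each), a difference of 0.46 that is given with no test, since it is a score over chosen genes. Without control replicate 1 the difference was 0.225, and without MCL1 in the sum it was 0.222. Leaving out the 3 uneven genes, a choice made after their values were seen, the ratio was -1.68, -1.65 and -1.71 in the SIGLEC15 siRNA libraries, against -2.265, -2.18 and -2.21 in the control libraries. The groups were then apart by 0.54 on average. What remained of the anti-apoptotic sum was MCL1, BCL2 and BCL2L1, each apart lower on its own, so this ratio adds nothing to the single genes. For single pairs, also set side by side with their values known, log2 of BAX over BCL2 was 5.40, 4.65 and 5.20 in the SIGLEC15 siRNA libraries, against 3.83, 3.79 and 3.88 in the control libraries. Log2 of BAK1 over MCL1 was -2.75, -2.59 and -2.71 in the SIGLEC15 siRNA libraries, against -3.445, -3.27 and -3.47 in the control libraries. Both pairs were higher in every SIGLEC15 siRNA library than in any control library. This follows from the single genes and adds nothing to them. BAK1 was apart higher and MCL1 apart lower, and BCL2 was apart lower while BAX overlapped.

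**Figure D4:**
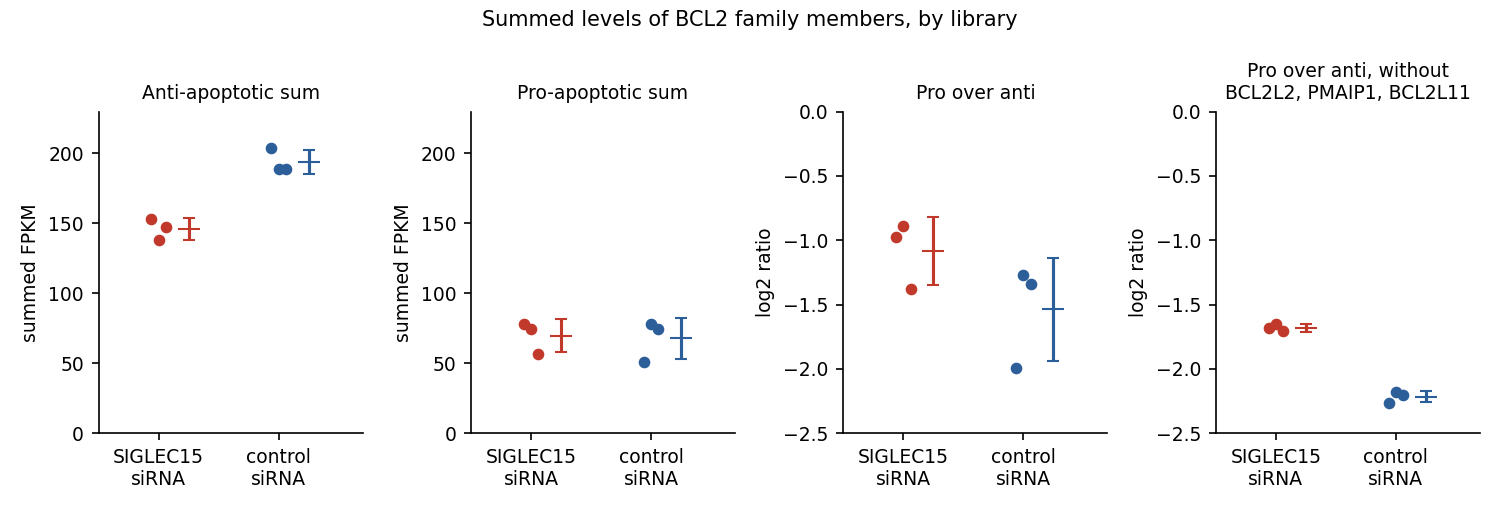
Sum of FPKM over the 4 anti-apoptotic and the 6 pro-apoptotic members, and log2 of the pro-apoptotic over the anti-apoptotic sum, for each of the 3 SIGLEC15 siRNA libraries (red, left) and the 3 control siRNA libraries (blue, right), with the mean ± SD beside each group. The panel at the right gives the ratio without BCL2L2, PMAIP1 and BCL2L11, a choice made after their values were seen. The anti-apoptotic sums were 138 to 153 FPKM with the SIGLEC15 siRNA and 189 to 204 FPKM with the control siRNA, while the pro-apoptotic sums and the ratio of all 10 members overlapped.

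The rest of the family counted 13 genes, of which 11 were tested: 1 fell, BCL2A1, and 10 did not pass the test. Of all tested genes, 2.43% fell and 2.22% rose. BCL2A1 (ENSG00000140379, minus strand of chromosome 15, 79960892 to 79971196) encodes BFL-1, a guardian known as a target of NF-kB. It had 2.17, 1.57 and 1.88 FPKM in the SIGLEC15 siRNA libraries, against 5.67, 5.35 and 6.23 FPKM in the control libraries. All 3 SIGLEC15 siRNA libraries lay below the control libraries, from 145, 91 and 127 counts against 347, 314 and 385 counts. It was 3.05-fold lower (log2 fold change -1.61, standard error 0.184, 95% interval -2.05 to -1.17, edgeR adjusted p = 0.00766). With no member of this list higher by edgeR, 2 were higher (BIK and BMF) and 2 lower (BCL2A1 and BOK) at an unadjusted p under 0.05, where 9.35% of all tested genes were higher and 9.74% lower. DESeq2 called 2 higher and 2 lower, against 8.62% and 8.49% of the genes it tested. Limma on log2(FPKM + 1) called 0 higher and 1 lower, against 3.73% and 4.26% of the genes it tested. Its filter at a mean of 1 FPKM left BIK, HRK and BCL2L15 untested.

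BMF, a BH3-only gene, had 0.347, 4.40 and 3.83 FPKM in the SIGLEC15 siRNA libraries, against 0.434, 0.296 and 0.431 FPKM in the control libraries. SIGLEC15 siRNA replicates 2 and 3 were far above the other 4 libraries, and replicate 1 lay within the control range. The log2 fold change of 2.85 had a 95% interval of 0.90 to 4.80 (edgeR adjusted p = 0.115), and without SIGLEC15 siRNA replicate 1 it was 3.37 and passed (edgeR adjusted p = 0.00933). BIK, another BH3-only gene, was at 1.26, 1.22 and 1.32 FPKM in the SIGLEC15 siRNA libraries, against 0.593, 0.544 and 0.816 FPKM in the control libraries. The groups were apart, with the SIGLEC15 siRNA group higher, at a log2 fold change of 0.94 (95% interval 0.35 to 1.53, edgeR adjusted p = 0.0925).

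BOK, an effector-like member, had 19.7, 17.8 and 16.5 FPKM in the SIGLEC15 siRNA libraries, against 20.9, 21.8 and 22.0 FPKM in the control libraries. The SIGLEC15 siRNA libraries were all lower, and the difference did not pass the test (log2 fold change -0.26, edgeR adjusted p = 0.165). HRK and BCL2L13 were likewise lower in each SIGLEC15 siRNA library without passing (edgeR adjusted p = 0.289 and 0.402). BCL2L12, BAD, BNIP3, BNIP3L and BCL2L15 overlapped between the groups, with log2 fold changes of 0.29, -0.17, 0.12, -0.04 and -0.45. The 2 untested genes were BCL2L10, with 4, 0 and 19 counts in the SIGLEC15 siRNA libraries against 0 in each control library, and BCL2L14, with 0 counts in all 6. The median log2 fold change of the 11 tested genes was -0.17, and the groups were apart for 1 gene higher and 4 lower. Of all tested genes, 12.9% were apart higher and 13.7% apart lower.

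The remaining lists hold genes that act on the family's proteins, on its transcription or downstream of the mitochondrion, and their counts stand against the shares over all tested genes. Those shares were 2.22% higher and 2.43% lower by edgeR, 9.35% higher and 9.74% lower at an unadjusted p under 0.05, 8.62% and 8.49% by DESeq2, and 3.73% and 4.26% by limma on log2(FPKM + 1). Limma tested only genes with a mean of at least 1 FPKM, so lower genes of these lists are not in its counts. Of 17 tested genes for protein turnover and anchoring of BCL2 family members, 1 rose and 0 fell, with a median log2 fold change of 0.13. At an unadjusted p under 0.05, 4 were higher and 0 lower in that list, DESeq2 called 4 and 0, and limma 1 and 0. The gene that rose was FBXW7, a ubiquitin ligase subunit that marks MCL1 for degradation, at 2.01, 2.12 and 2.51 FPKM in the SIGLEC15 siRNA libraries, against 1.61, 1.32 and 1.19 FPKM in the control libraries. Its groups were apart (log2 fold change 0.69, standard error 0.144, edgeR adjusted p = 0.0482). Leaving out any single library ended the call (edgeR adjusted p of 0.0577 to 0.159), as did testing without the filter on low counts (0.0688) and limma (0.0536 to 0.136).

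Of 10 tested transcription factors of BCL2 family genes, 1 rose and 0 fell, with a median log2 fold change of -0.10. At an unadjusted p under 0.05, 2 were higher and 4 lower, DESeq2 called 2 and 4, and limma 1 and 2. STAT3, a transcription factor known to act on BCL2, BCL2L1 and MCL1, had 10.8, 11.8 and 11.2 FPKM in the SIGLEC15 siRNA libraries, against 7.66, 7.05 and 7.30 FPKM in the control libraries. It was higher in all 3 SIGLEC15 siRNA libraries, by 1.54-fold (log2 fold change 0.62, standard error 0.0619, edgeR adjusted p = 0.00536). Of the 16 p53 target genes tested, 0 passed edgeR's test in either direction and the median was 0.00. At an unadjusted p under 0.05, 3 of them were higher and 2 lower, DESeq2 called 3 and 2, and limma 0 and 0.

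Downstream of pore formation, 1 of 13 tested apoptosome and mitochondrial release genes rose and 1 fell, with a median of 0.06. At an unadjusted p under 0.05, 2 were higher and 3 lower, DESeq2 called 2 and 3, and limma 1 and 1. HTRA2, a mitochondrial serine protease that binds inhibitor of apoptosis proteins once released, was at 8.59, 7.50 and 7.06 FPKM in the SIGLEC15 siRNA libraries, against 11.8, 11.5 and 12.0 FPKM in the control libraries. It was 1.52-fold lower with no overlap (log2 fold change -0.61, standard error 0.102, edgeR adjusted p = 0.0249). Its adjusted p was 0.0713 to 0.105 when SIGLEC15 siRNA replicate 2 or 3 or any 1 control library was left out.

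Among 6 tested inhibitor of apoptosis genes, 1 rose and 0 fell, with a median of 0.11, and at an unadjusted p under 0.05 the numbers were 1 and 0. DESeq2 called 2 higher and 0 lower, and limma 1 and 0. BIRC3, the gene of cIAP2, had 2.17, 2.72 and 2.25 FPKM in the SIGLEC15 siRNA libraries, against 1.46, 0.873 and 1.23 FPKM in the control libraries. It was 2.00-fold higher with no overlap (log2 fold change 1.00, standard error 0.199, edgeR adjusted p = 0.0420), and leaving out any single library gave an adjusted p of 0.0571 to 0.142. Testing without the filter on low values gave 0.0583 with edgeR and 0.0957 with limma.

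In the death receptor pathway, which meets the family through BID, 0 of 12 tested genes rose and 1 fell, with a median of 0.12. At an unadjusted p under 0.05, 1 was higher and 3 lower, DESeq2 called 1 and 3, and limma 0 and 1. RIPK1, a kinase of the tumour necrosis factor receptor complex, was at 7.55, 7.56 and 8.45 FPKM in the SIGLEC15 siRNA libraries, against 11.9 FPKM in each control library. It was 1.51-fold lower with no overlap (log2 fold change -0.60, standard error 0.0786, edgeR adjusted p = 0.0119). Without SIGLEC15 siRNA replicate 2 or control replicate 2 the adjusted p was 0.0594 or 0.0563.

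The genes whose levels ran closest to the 2 fallen members were found by Pearson's r of log2(FPKM + 1) over the 6 libraries. The candidates were 10081 tested protein-coding genes with a gene symbol and a mean of at least 1 FPKM, the members left out. With a difference between the groups shared by many genes, 581 of them had r above 0.9 with BCL2 and 509 with MCL1, so r is a description. For BCL2 the closest were HDAC7 (r = 0.999, log2 fold change -1.04), AMBRA1 (r = 0.996, log2 fold change -0.29) and PABPC1L (r = 0.996, log2 fold change -0.40). For MCL1 they were RAD9A (r = 0.998, log2 fold change -0.69), DBNDD2 (r = 0.995, log2 fold change -0.42) and HTRA2 (r = 0.993, log2 fold change -0.61). All but AMBRA1 (edgeR adjusted p = 0.125) passed the test, which 4.65% of all tested genes did. These genes were picked for following members whose groups lay apart in the same libraries, so their passing is a description too. Leaving out any single library ended the call of PABPC1L (edgeR adjusted p of 0.0942 to 0.121). Leaving out any single library but SIGLEC15 siRNA replicate 1 ended those of RAD9A (0.0977 to 0.134) and DBNDD2 (0.0977 to 0.139), and testing without the filter on low counts ended all 3 (0.0527 to 0.0543). Limma on log2(FPKM + 1) with no filter gave 0.0520 for PABPC1L and 0.0635 for RAD9A.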

How the data were processed

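Poly(A) RNA of 6 libraries was measured, 3 per group as labelled. The authors deposited 1 table with a read count and an FPKM value per gene and library, and HISAT, StringTie and edgeR are named in the submitters' processing notes. For versions, genome build and strand setting, the sources used here state nothing. For nearly all well-covered genes (12741 of 12759) count over FPKM kept 1 factor per gene and library within 2%, so the deposited FPKM follow the deposited counts, and a count of 0 is listed at 0.0001 FPKM. Start and end matched GENCODE 29 for 9 of the 10 members.

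The test on counts was that of edgeR 4.0.16 under R 4.3.3 (filterByExpr with a minimum count of 10 and a minimum total of 15, TMM scaling, quasi-likelihood F test, Benjamini-Hochberg adjustment over 18910 genes, threshold 0.05). Standard errors were computed as the absolute log2 fold change over the square root of the F statistic. The 95% intervals used a t quantile at the test's degrees of freedom. CPM use TMM-scaled library sizes. Ratios between genes use FPKM, which is per length. Gene names in lists were matched by symbol, and the row with more counts was kept where a symbol had several. The script was tested on simulated data. Alternatives were DESeq2 1.42.0, limma 3.58.1 on log2(FPKM + 1) and log2(FPKM + 0.1) for genes with a mean of at least 1 FPKM, other scalings and filters, a replicate block, and leaving out each library. Figures and sums were made with Python 3.11.15 and pandas 2.3.3.

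The members, gene lists and marker lists were chosen with earlier results of these data known. Named were all members, the wider family, up to 4 called genes of each other list by smallest p, overlapping genes with counts, and the 3 genes closest to each called member. A called gene of the apoptosome list is not reported here. Depth limits what low genes show: standard errors of log2 fold changes cover counting and library spread together.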

Additional observations from a re-analysis of the deposited data

How the results depend on the processing

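Genes changed numbered 879 (419 higher, 460 lower) in the reported fit, against 2916 (1469 and 1447) with DESeq2, where 1 member was called higher. Limma called 1 member lower on log2(FPKM + 1), on log2(FPKM + 0.1) and without a filter, where 559 genes changed and 247 were higher. BCL2 was not tested by limma with its filter, which needs a mean of 1 FPKM. A fit that blocked on the replicate number left 50 changed genes (15 higher, 35 lower) and 0 lower members (edgeR adjusted p = 0.0867 for BCL2 and 0.125 for MCL1). It also ended the calls of BCL2A1 (0.0667), STAT3 (0.0754), RIPK1 (0.0979), HTRA2 (0.135), BIRC3 (0.171) and FBXW7 (0.193). The same held for HDAC7 (0.0667), RAD9A (0.142), DBNDD2 (0.154) and PABPC1L (0.199). Libraries of 1 number did not deviate together over the tested genes (r = -0.07, 0.01 and -0.12). That does not show whether libraries of 1 number were made together, which the labels do not say. Leaving out 1 library gave 260 to 431 changed genes, 108 to 189 higher and 151 to 242 lower, with 0 to 1 members lower. No member was lower without SIGLEC15 siRNA replicate 3, control replicate 1 or control replicate 2. The difference in the log2 ratio of pro- over anti-apoptotic sums, 0.455, was 0.225 to 0.606 when 1 library was left out, 0.444 in CPM, 0.222 without MCL1 and 0.447 with the wider family added, the last chosen after seeing the data. The direction turned for PMAIP1 (0.10, 0.12 and 0.10 with the limma settings, 0.08 with the block, -0.46 to 0.22 with 1 library left out). It also turned, with 1 library left out, for BCL2L2 (-1.95 to 3.64), BID (-0.01 to 0.25), BCL2L15 (-1.07 to 0.23) and BNIP3L (-0.08 to 0.00). The other members, tested family genes, named list genes and genes closest to BCL2 and MCL1 kept their direction in every alternative run. Overlapping genes other than BCL2L2-PABPN1, and the cell type markers, were not run under the alternatives. The cause was not tested. Counts of 6 to 22 per library limit what could be seen of SIGLEC15.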
